A study of Mus musculus with 47 samples.

Results

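The genes described are 10 neuropeptide and interneuron marker genes, Sst, Npy, Pvalb, Vip, Cck, Penk, Pdyn, Tac1, Crh and Resp18, chosen by their gene symbols. Resp18 had already been named for its genotype differences in hippocampus, so those values are given as a description, without a test. All 10 were among the 33139 genes of the brainstem table and the 31751 genes of the hippocampus table. A gene was tested in a region when its mean count over the libraries of that region was at least 50, which 10 of the 10 passed in brainstem and 9 in hippocampus. Crh, with a mean count of 13.5 in hippocampus, did not pass there.

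RNA was sequenced from brainstem and hippocampus of 12-month-old male C57BL/6 mice in 4 groups, WT_SD, WT_HFD, TG_SD and TG_HFD, with 5 brainstem libraries of WT_SD and 6 libraries of every other group, 47 in all. TG mice came from a homozygous colony carrying a human transgene driven by a Thy1 promoter that is active in neurons of the central nervous system. WT mice came from a parallel colony founded from the same outcross, so a difference between the colonies and an effect of the transgene cannot be told apart. Mice received a standard diet (SD) or a high-fat diet (HFD) from 5 weeks of age, assigned at random within litters. Brainstem here was the medulla behind about bregma -8 mm, and hippocampus was taken whole. Total counts lay between 10020784 and 15078812 per library in brainstem and between 11945971 and 17328447 in hippocampus. The region labels were checked on markers: Slc6a5, the glycine transporter of inhibitory brainstem neurons, lay between 234 and 460 CPM (counts scaled to each library's total and, across libraries, by TMM factors) in brainstem and between 0 and 0.520 CPM in hippocampus, and 7 of 7 markers of dentate granule cells were called higher in hippocampus.

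Neuropeptides are cut from larger precursor proteins, packed into dense-core vesicles and released alongside fast transmitters, and they act on G protein-coupled receptors over longer distances than a synapse. In the hippocampus, Sst, Npy, Vip and Cck, together with the calcium-binding protein Pvalb, mark classes of GABAergic interneurons, although Cck is also made by pyramidal cells and Pdyn by dentate granule cells. In the medulla, Penk, Tac1, Sst and Npy are made in autonomic, respiratory and sensory nuclei, where opioid peptides and substance P act on pain and breathing circuits. In bulk tissue, fewer cells of a type and less RNA per cell cannot be told apart.

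Promoter sequences are shown for 4 of the genes whose levels varied together across libraries, as the correlations show. RefSeq gave promoter windows for 8 of the 10 symbols, with 2 windows each for Pvalb and Pdyn and none for Penk and Crh. The sequences are the 250 bases before the annotated start in the GRCm38.p6 build, 5′ to 3′ on the gene's strand: Sst at chr16:23890845-23891094 (minus strand), Cck at chr9:121495695-121495944 (minus), Tac1 at chr6:7554811-7555060 (plus) and Resp18 at chr1:75278416-75278665 (minus). Capitals mark the cyclic AMP response element (CRE), TGACGTCA, or its short form, TGACG, read on either strand, so that CGTCA is the short form on the opposite strand.
Sst: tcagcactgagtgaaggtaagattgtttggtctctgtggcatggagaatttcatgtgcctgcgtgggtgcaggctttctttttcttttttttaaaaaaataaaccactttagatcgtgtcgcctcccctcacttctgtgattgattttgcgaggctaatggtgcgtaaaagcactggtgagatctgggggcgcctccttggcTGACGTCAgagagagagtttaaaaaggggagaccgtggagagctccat
Cck: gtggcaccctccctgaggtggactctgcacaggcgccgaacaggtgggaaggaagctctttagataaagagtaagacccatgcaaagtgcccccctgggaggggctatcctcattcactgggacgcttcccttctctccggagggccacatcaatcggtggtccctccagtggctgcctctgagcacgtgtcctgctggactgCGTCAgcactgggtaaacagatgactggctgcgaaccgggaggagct
Tac1: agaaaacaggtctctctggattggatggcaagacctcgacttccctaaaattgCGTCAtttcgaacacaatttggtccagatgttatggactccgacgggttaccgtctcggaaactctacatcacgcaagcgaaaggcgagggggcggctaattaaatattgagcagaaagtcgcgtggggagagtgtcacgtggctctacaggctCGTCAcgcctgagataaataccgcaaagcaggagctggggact
Resp18: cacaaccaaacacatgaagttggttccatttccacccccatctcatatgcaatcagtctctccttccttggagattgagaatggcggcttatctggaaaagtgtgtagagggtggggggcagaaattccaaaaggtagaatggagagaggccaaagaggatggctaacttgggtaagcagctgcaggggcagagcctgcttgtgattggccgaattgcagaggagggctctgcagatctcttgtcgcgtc
The full CRE, for which the somatostatin promoter is a textbook example, was present in 1.79% of 32851 promoter windows of 300 bases and, among the 10 windows of these genes, in that of Sst alone, 48 bases before the start. The short form, which the full CRE contains, was present in 20.8% of all windows and in those of Cck (47 bases before the start), Sst, Tac1 (197 and 43 bases) and Vip (79 bases). The AP-1 motif TGANTCA was present in 7.81% of all windows and in 0 of the 10. TATAAA was present in 13.6% of all windows and in that of Vip alone. These matches describe letters and not use by a factor.

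In brainstem, the order of levels per length was Pvalb, Resp18, Penk, Sst, Npy, Tac1, Cck, Crh, Pdyn and Vip, on medians of CPM per kilobase of exon (RPKM) over 23 libraries. Pvalb, the calcium buffer of fast-spiking neurons, ranged from 143 to 235 RPKM with a median of 176. Resp18, a protein of neuroendocrine secretory granules, had a median of 135 RPKM, and Penk, the enkephalin precursor, 76.9 RPKM. Sst, the somatostatin precursor, had a median of 57.1 RPKM, and none of the other 6 genes had a median above that of Npy, 7.005 RPKM. Among neighbours in this order, the ranges over libraries were separate only between Resp18 and Penk, between Sst and Npy, and between Pdyn and Vip. Npy, Tac1, Cck, Crh and Pdyn formed a run in which each gene's range overlapped that of the next, with the higher of each pair above the lower in 16 to 18 of 23 libraries.

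In hippocampus, the order was Sst, Cck, Npy, Resp18, Pvalb, Penk, Pdyn, Vip, Tac1 and Crh. Sst had a median of 188 RPKM (range 162 to 225), Cck, the cholecystokinin precursor, 100.3 RPKM (86.4 to 122), and Npy, the neuropeptide Y precursor, 68.7 RPKM (60.8 to 86.2). The ranges of these 3 genes were separate from each other, and that of Npy was separate from the range of Resp18, which had a median of 31.9 RPKM. Resp18 overlapped with Pvalb (23.4 RPKM), Pvalb with Penk (13.4 RPKM), and Pdyn, the dynorphin precursor (5.199 RPKM), with Vip (4.62 RPKM). Tac1, the precursor of substance P and neurokinin A, had a median of 2.60 RPKM, and Crh, corticotropin-releasing hormone, 0.691 RPKM. The range of Penk was separate from that of Pdyn, and those of Vip, Tac1 and Crh from each other. The plot of levels by region shows every library.

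**Figure D1:**
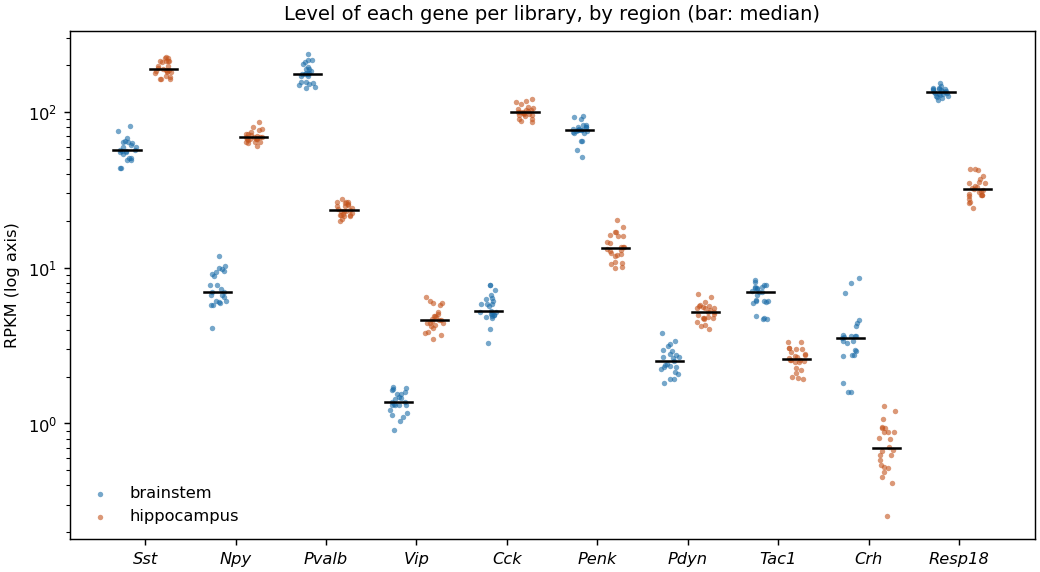
Level of each of the 10 genes in RPKM (log axis), with 1 point per library in brainstem (blue, 23 libraries) and hippocampus (orange, 24 libraries) and a bar at the median. Sst, Npy, Vip, Cck and Pdyn lie higher in hippocampus, and Pvalb, Penk, Tac1, Crh and Resp18 in brainstem.

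The first comparison asked which of the genes differ between the regions. It was fitted over all 47 libraries with edgeR's quasi-likelihood test, as the mean of the hippocampus/brainstem differences of the 4 groups. Genes were tested when their mean count over all 47 libraries was at least 50, so a gene could pass through 1 region alone. For such genes the direction of the difference follows from the filter and is given as a description. A gene was called when its Benjamini-Hochberg adjusted p over 13458 genes was at most 0.05 and its absolute log2 fold change at least 0.3. Of the 9 genes tested, 5 were higher and 4 lower in hippocampus, against 60.2% of all genes tested that were called, 29.2% of them higher and 31.0% lower. The median log2 fold change was 0.94 over the 9 genes and -0.02 over all genes.

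Among the interneuron peptides, Cck showed the largest difference. Cck lay between 4.32 and 10.2 CPM in brainstem (median 6.93) and between 112.7 and 159 CPM in hippocampus (median 131). It was 17.04-fold higher in hippocampus, with a log2 fold change of 4.09 (SE 0.0567) and an adjusted p of 1.30e-47. Npy lay between 2.32 and 6.70 CPM in brainstem (median 3.96) and between 34.4 and 48.8 CPM in hippocampus (median 38.9), 8.60-fold higher at a log2 fold change of 3.10 (SE 0.0655). For both genes the ranges of the regions lay far apart.

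Vip, the peptide of interneurons that inhibit other interneurons, lay between 3.07 and 5.79 CPM in brainstem (median 4.68) and between 11.9 and 22.1 CPM in hippocampus (median 15.7). It was 3.27-fold higher in hippocampus, with a log2 fold change of 1.71 (SE 0.0658). Sst lay between 31.6 and 58.8 CPM in brainstem (median 41.2) and between 117 and 162 CPM in hippocampus (median 135.8), 3.13-fold higher at a log2 fold change of 1.65 (SE 0.0486). Pvalb went the other way, with 148.7 to 244 CPM in brainstem (median 183) and 20.9 to 28.8 CPM in hippocampus (median 24.4). It was 7.98-fold lower in hippocampus, with a log2 fold change of -3.00 (SE 0.0456) and an adjusted p of 7.10e-46. The 5 interneuron genes thus did not move one way. The share of all genes without overlap between the regions was not computed, so separate ranges of the regions are given only as a description.

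The opioid precursors differed in direction. Penk lay between 84.5 and 154 CPM in brainstem (median 126) and between 16.3 and 32.9 CPM in hippocampus (median 21.9), 5.91-fold lower in hippocampus at a log2 fold change of -2.56 (SE 0.0593). Pdyn, by contrast, lay between 5.28 and 10.96 CPM in brainstem (median 7.25) and between 11.6 and 19.5 CPM in hippocampus (median 15.01), 1.92-fold higher at a log2 fold change of 0.94 (SE 0.0661). The Pdyn ranges were adjacent and did not overlap.

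Tac1 lay between 15.9 and 28.3 CPM in brainstem (median 23.6) and between 6.56 and 11.3 CPM in hippocampus (median 8.82), 2.67-fold lower at a log2 fold change of -1.42 (SE 0.0687). Resp18 lay between 122 and 158 CPM in brainstem (median 139.6) and between 24.8 and 44.7 CPM in hippocampus (median 32.9), 4.37-fold lower at a log2 fold change of -2.13 (SE 0.0371). Crh, which was not tested, lay between 2.10 and 11.4 CPM in brainstem (median 4.65) and between 0.337 and 1.71 CPM in hippocampus (median 0.913), where its counts were 5 to 24 per library. For all 3 genes the libraries of brainstem lay above those of hippocampus. The direction and the call of the 9 tested genes held within each of the 4 groups and in 47 of 47 fits that left out 1 library. The libraries of the regions may come from the same mice, which the labels do not tell, so the 47 libraries may not be independent.

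**Figure D2:**
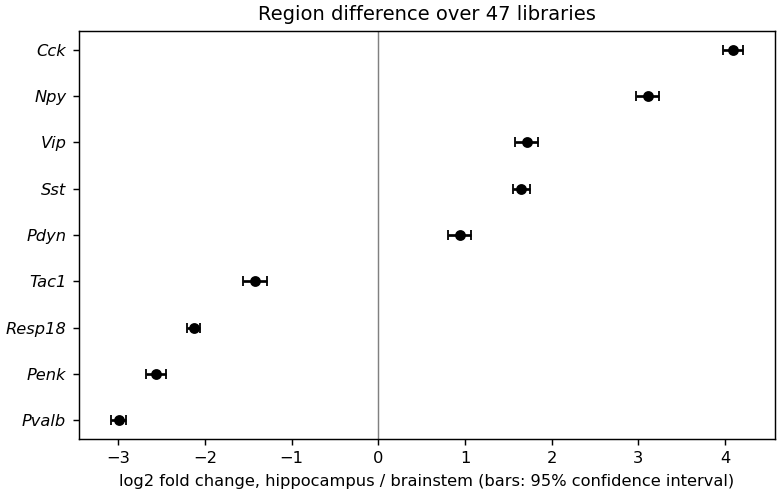
Log2 fold change of hippocampus against brainstem for the 9 genes tested over 47 libraries, as points with their 95% confidence intervals. Cck and Npy lie highest at 4.09 and 3.10, and Penk and Pvalb lowest at -2.56 and -3.00.

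Receptors of these peptides also differed between the regions. Of 22 listed receptor and binding protein genes, 15 were tested, 9 were higher in hippocampus and 4 lower, with a median log2 fold change of 0.95. Of all genes tested, 29.2% were called higher and 31.0% lower. Sstr4, a somatostatin receptor, lay between 0.0878 and 0.659 CPM in brainstem and between 7.75 and 14.6 CPM in hippocampus (log2 fold change 4.79, SE 0.103). Vipr1, a VIP receptor, lay between 0 and 1.12 CPM in brainstem and between 11.8 and 17.5 CPM in hippocampus (4.66 on the log2 scale, SE 0.0909). Both passed the filter through hippocampus alone, with counts of 1 to 8 (Sstr4) and 0 to 17 (Vipr1) in brainstem. Lower in hippocampus were Oprk1, the kappa opioid receptor to which dynorphins bind (-2.77, SE 0.0870), and Tacr1, the substance P receptor (-2.57, SE 0.0902). Oprk1 and Tacr1 passed through brainstem alone, with counts of 9 to 38 and 13 to 42 in hippocampus. Pdyn and Oprk1 thus differed in opposite directions between the regions, and Tac1 and Tacr1 in the same direction.

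Of 43 other neuropeptide precursor genes, 5 passed the filter on low counts over all 47 libraries. In hippocampus 1 was called higher and 4 lower, against 29.2% and 31.0% of all genes tested. Grp, gastrin-releasing peptide, was the higher one (log2 fold change 3.40, SE 0.0948). Calca, which encodes calcitonin and CGRP, was the lowest (-4.39, SE 0.0822), followed by Adcyap1, the PACAP precursor (-2.38, SE 0.0763). Grp had counts of 10 to 41 in brainstem and Calca 6 to 20 in hippocampus, so each passed through 1 region alone. Among 16 genes of peptide processing and dense-core vesicles, 8 were higher and 5 lower, again beside 29.2% and 31.0% of all genes. Cadps2, a priming factor of dense-core vesicles (1.90, SE 0.0379), and Cpe, the carboxypeptidase that trims peptide precursors (1.33, SE 0.0261), were the highest. Slc18a2, the vesicular monoamine transporter (-2.75, SE 0.0722), and Qpct, the glutaminyl cyclase that closes peptide ends (-0.79, SE 0.0525), were the lowest.

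Of 31 listed genes of GABAergic interneurons, 25 were tested, 17 were higher and 6 lower in hippocampus, with a median log2 fold change of 0.59. The shares of all genes called higher and lower were 29.2% and 31.0%. Tac2 also stands in the precursor list and Crhbp in the receptor list. Dlx1 and Lhx6, transcription factors of forebrain interneurons, stood at 0 to 0.0770 CPM and 0 to 0.557 CPM in brainstem and at 19.1 to 26.1 CPM and 12.1 to 17.3 CPM in hippocampus. Both passed the filter through hippocampus alone, with counts of 0 to 1 and 0 to 8 in brainstem. Calb2, the calcium-binding protein calretinin, was lower in hippocampus (-2.02, SE 0.0533), as was Lamp5, a membrane protein of a further interneuron class (-3.00, SE 0.0279).

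The comparisons within a region asked whether the genes differ by genotype or diet. The 4 groups of a region were fitted in 1 model with 4 surrogate variables, which are covariates estimated from the counts to absorb variation that the labels do not name. With edgeR, 0 of 10 genes in brainstem and 0 of the 8 tested genes other than Resp18 in hippocampus were called in any of the 4 contrasts or in the genotype by diet interaction, and DESeq2 also called 0. Resp18 is left out of this hippocampal count, since it had been named for its genotype differences there. Few genes of any kind were called in this fit, and the number depended on the surrogate variables. For TG_HFD/WT_HFD in hippocampus, 30 genes were called with 4 of them, and 515, 614 and 634 with 0, 1 and 2. The shares that follow are those of the fit with 4. In brainstem the share of all 13340 genes called was 0.142% for TG_SD/WT_SD, 0.0525% for TG_HFD/WT_HFD, 0% for WT_HFD/WT_SD, 0.0075% for TG_HFD/TG_SD and 0.0075% for the interaction. In hippocampus, of 13272 genes, it was 0.098% for TG_SD/WT_SD, 0.226% for TG_HFD/WT_HFD, and 0% for WT_HFD/WT_SD, for TG_HFD/TG_SD and for the interaction. Where 0 genes were called, 724 had an unadjusted p under 0.05 for WT_HFD/WT_SD in brainstem, and 851, 940 and 794 in the 3 hippocampal comparisons, where DESeq2 called 1, 3, 2 and 1 genes. At an unadjusted p under 0.05 stood 0 to 2 of the 10 genes per brainstem comparison, against 4.83% to 10.5% of all genes. In hippocampus this was so for 1 of the 8 genes, Penk, in each genotype contrast, for Npy in both diet contrasts, and for Pvalb on TG_HFD/TG_SD. The share of all genes there was 9.08% for TG_SD/WT_SD, 11.3% for TG_HFD/WT_HFD, 6.41% for WT_HFD/WT_SD and 7.08% for TG_HFD/TG_SD.

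**Figure D3:**
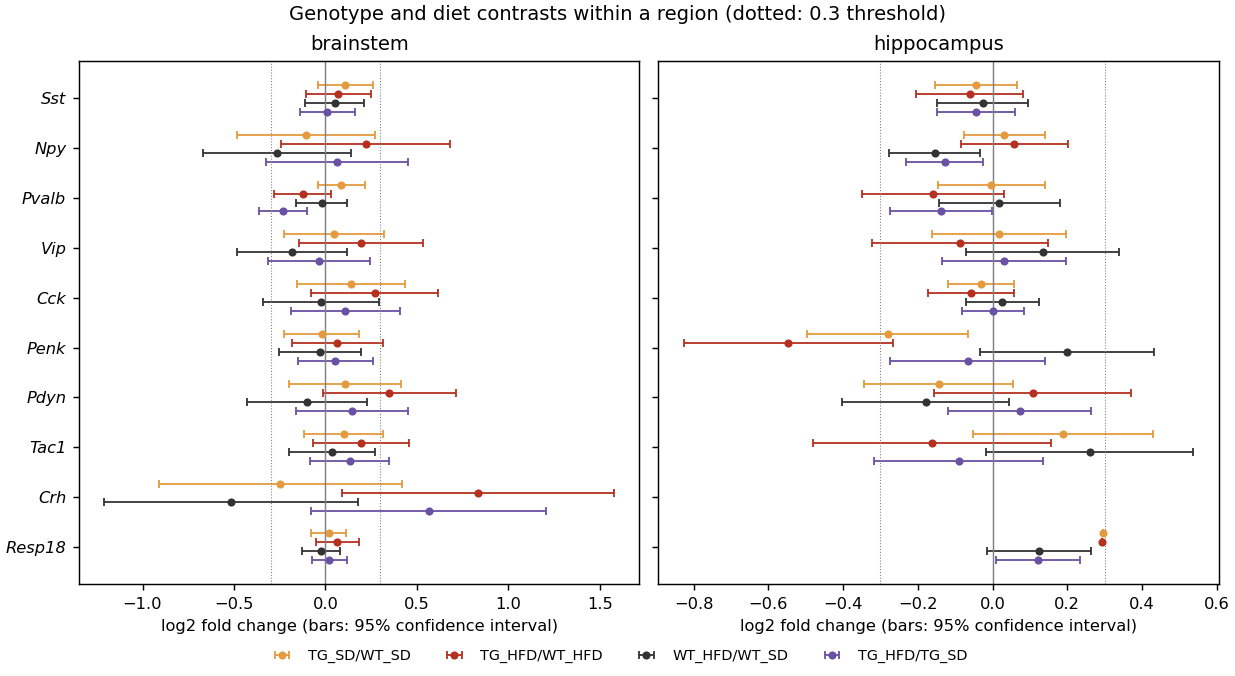
Log2 fold changes of the 10 genes in brainstem (left) and of 9 genes in hippocampus (right) for the 4 contrasts of genotype or diet, with 95% confidence intervals and dotted lines at the threshold of 0.3. Penk lies at -0.55 for TG_HFD/WT_HFD in hippocampus, Crh has the widest intervals in brainstem and is not shown in hippocampus, and the 2 genotype contrasts of Resp18 in hippocampus are drawn without intervals because they are given as a description.

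Among the genes other than Resp18, Penk had the smallest p within a region. In hippocampus, Penk lay between 23.9 and 30.1 CPM in WT_HFD (median 26.5) and between 16.3 and 23.6 CPM in TG_HFD (median 18.8). The 6 libraries of each group did not overlap, as was so for 4.15% of all genes tested in this contrast and for 1 of the 9 genes. On the standard diet, Penk lay between 19.3 and 32.9 CPM in WT_SD (median 22.3) and between 16.4 and 22.2 CPM in TG_SD (median 20.6), and these groups overlapped. The log2 fold change was -0.55 for TG_HFD/WT_HFD (SE 0.138, adjusted p = 0.0731 with edgeR) and -0.28 for TG_SD/WT_SD (SE 0.106, adjusted p = 0.365), the latter moving to -0.48 without WT_SD replicate 6 and to -0.15 without WT_SD replicate 7.

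The call for Penk on the high-fat diet depended on the covariates. With 0, 1 or 2 surrogate variables the log2 fold change was -0.50 and the adjusted p 0.0054, 0.00199 and 0.00178, with a correction for GC content in their place it was -0.46 (adjusted p = 0.0207), and with only the 2 groups compared -0.51 (adjusted p = 0.000123), whereas with 3 surrogate variables the adjusted p was 0.0683 and with DESeq2 0.150. Leaving out single libraries moved the log2 fold change between -0.72 and -0.47 and gave a call in 3 of 24 fits, those without WT_SD replicate 6, WT_SD replicate 8 or WT_HFD replicate 8.

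In brainstem, Penk had log2 fold changes for genotype of -0.02 (SE 0.101) on SD and 0.06 (SE 0.122) on HFD, neither of them called. The genotype effect of Penk was lower in hippocampus than in brainstem by 0.42 on the log2 scale (SE 0.116, unadjusted p = 0.000812, adjusted p = 0.695 with edgeR), and 0.0223% of all genes were called in this comparison and 0 of these 9. With 8 surrogate variables in that model the difference was -0.51 and was called (adjusted p = 0.0495). Penk is abundant in neurons of the striatum, whose markers are given beside it. The summed level of 10 markers of striatal medium spiny neurons was 104.1 to 120 CPM in WT_HFD hippocampus (median 112.5) and 113.5 to 124 CPM in TG_HFD (median 119). Among its genes, Adora2a, a defining marker of the striatal neurons that make enkephalin, had medians of 1.403 and 1.07 CPM in these groups, Drd1 4.446 and 4.07 CPM, and Drd2 2.24 and 2.395 CPM, and the ranges overlapped for all 3. Median counts per library in WT_HFD and TG_HFD were low, 17 and 15.5 for Adora2a, 57 and 56.5 for Drd1, and 28 and 36.5 for Drd2. Most of the summed level came from the other listed markers. The part of striatal neurons in the Penk values was not tested.

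Resp18 in hippocampus lay between 26.8 and 33.7 CPM in WT_SD (median 29.5) and between 30.8 and 44.3 CPM in TG_SD (median 35.4). On the high-fat diet it lay between 24.8 and 34.0 CPM in WT_HFD (median 31.1) and between 33.2 and 44.7 CPM in TG_HFD (median 39.3). The medians were higher in TG on both diets, and the groups overlapped on both. The log2 fold changes were 0.30 and 0.29. In brainstem, the coefficient of variation of Resp18 within a group was 2.71% to 9.13%, with group medians between 136.9 and 142 CPM and log2 fold changes of 0.02 (SE 0.0470) and 0.07 (SE 0.0569) for genotype.

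**Figure D4:**
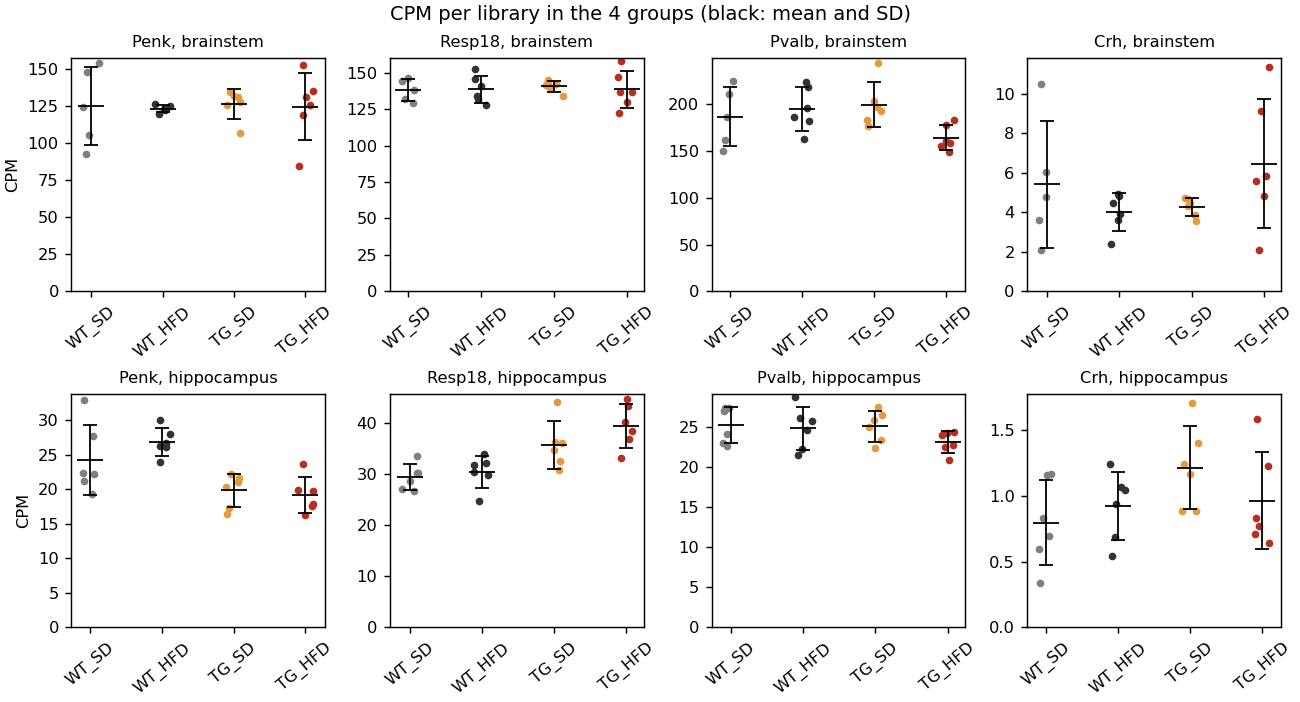
CPM of Penk, Resp18, Pvalb and Crh in each library of the 4 groups, in brainstem (top) and hippocampus (bottom), with the mean and SD in black. Penk in hippocampus lies at 16.3 to 23.6 CPM in TG_HFD, below the 23.9 to 30.1 CPM of WT_HFD, and in brainstem its 4 groups overlap.

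Among the interneuron genes of brainstem, Pvalb had the smallest unadjusted p. It lay between 176 and 244 CPM in TG_SD (median 195) and between 148.7 and 183 CPM in TG_HFD (median 159). The groups overlapped between 176 and 183 CPM, and the log2 fold change for TG_HFD/TG_SD was -0.23 (SE 0.0639, unadjusted p = 0.00104, adjusted p = 0.464 with edgeR). Pvalb is also abundant in cerebellar neurons, whose tissue borders the medulla. The summed level of 9 other cerebellar neuron markers was 161 to 361 CPM in TG_SD (median 217) and 139.7 to 235 CPM in TG_HFD (median 169.9). Gabra6, a defining gene of cerebellar granule cells, had medians of 6.498 and 2.31 CPM in these groups. Pcp2, a defining gene of Purkinje cells, had 0.371 and 0.212 CPM, at median counts of only 4.5 and 2.5. In WT_SD and WT_HFD, the marker sum had medians of 174.5 and 206 CPM, Gabra6 2.63 and 4.55 CPM, and Pvalb 186 and 191 CPM. The part of cerebellar cells in the Pvalb values was not tested.

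Npy in hippocampus had log2 fold changes of -0.15 for WT_HFD/WT_SD (SE 0.0598, adjusted p = 0.722 with edgeR) and -0.13 for TG_HFD/TG_SD (SE 0.0506, adjusted p = 0.551). It lay between 38.9 and 45.1 CPM in WT_SD (median 40.3), 34.4 and 42.3 CPM in WT_HFD (median 38.3), 36.4 and 48.8 CPM in TG_SD (median 39.9) and 35.7 and 40.8 CPM in TG_HFD (median 37.6). The groups overlapped in both diet contrasts, and the first difference was -0.09 without WT_SD replicate 3. For Sst and Cck in hippocampus, the 95% confidence intervals of all 4 contrasts stayed within 0.3 of zero in the fit with 4 surrogate variables. On the log2 scale the widest reached from -0.20 to 0.08 for Sst and from -0.17 to 0.06 for Cck, on TG_HFD/WT_HFD. Without these covariates, the medians in WT_HFD and TG_HFD were 153 and 130 CPM for Sst and 141 and 126 CPM for Cck. The ranges of these groups overlapped, and the intervals hold for that fit only.

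Crh in brainstem had the largest differences and the largest errors. Its WT_SD libraries read 2.10, 3.62, 4.80, 6.06 and 10.5 CPM. It lay between 2.39 and 4.91 CPM in WT_HFD (median 4.20), between 3.56 and 4.71 CPM in TG_SD (median 4.404) and between 2.10 and 11.4 CPM in TG_HFD (median 5.72). These groups overlapped, and WT_SD and TG_HFD each held libraries at both ends. The log2 fold change for TG_HFD/WT_HFD was 0.83 (SE 0.363, adjusted p = 0.863), and it was 0.25 without TG_HFD replicate 1. Vip, Tac1 and Pdyn were called in neither region, and the largest of their log2 fold changes in the 4 contrasts was 0.35 for Pdyn on TG_HFD/WT_HFD in brainstem (SE 0.178, adjusted p = 0.887).

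Among the listed precursors, receptors, processing genes and interneuron genes, 1 was called within a region. Pcsk1n, which encodes proSAAS, an inhibitor of the prohormone convertase PCSK1, lay in hippocampus between 52.0 and 126 CPM in WT_HFD (median 86.9) and between 19.8 and 35.9 CPM in TG_HFD (median 31.0). These groups did not overlap, as was so for 4.15% of all genes tested in TG_HFD/WT_HFD in hippocampus, where 0.226% of all genes were called. On SD Pcsk1n lay between 24.8 and 59.5 CPM in WT_SD (median 48.997) and between 17.4 and 50.1 CPM in TG_SD (median 35.9), with overlap. In brainstem the medians of Pcsk1n were 22.5 CPM in WT_SD, 47.4 CPM in WT_HFD, 18.1 CPM in TG_SD and 20.4 CPM in TG_HFD. The WT_HFD median was thus the highest of the 4 groups in both regions, and Pcsk1n was not called in brainstem. In hippocampus the log2 fold change for TG_HFD/WT_HFD was -0.56 (SE 0.114, adjusted p = 0.0188 with edgeR). With 0, 1 or 2 surrogate variables it was -1.62, -1.61 and -1.62, with 3 it was -0.75, and it lost the call without TG_SD replicate 3 (adjusted p = 0.0944) or TG_HFD replicate 8 (adjusted p = 0.120). Pcsk1 itself, the other convertase gene Pcsk2 and the other 13 processing genes passed no threshold in this contrast, nor did any of the 4 precursors, 12 receptors and 26 interneuron genes tested in hippocampus.

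The last description is of how the genes varied together across the libraries of a region, after each group's mean was taken out of log2 CPM. Libraries of a region share their dissection and their scaling, so a correlation between genes is a description of these libraries. Of 81 pairs (45 in brainstem, 36 in hippocampus), 7 passed an adjusted permutation p of 0.05, all with positive r, 6 of them in brainstem. The median r over pairs was 0.27 in brainstem and 0.15 in hippocampus. Permutations moved libraries only within their group. Leaving out each library in turn kept r of the 7 pairs between 0.48 and 0.86.

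In brainstem, Penk and Tac1, the enkephalin and substance P precursors, correlated most, with a Pearson r of 0.81 over 23 libraries (permutation p = 0.00082, adjusted p = 0.0166) and a Spearman rho of 0.61 (permutation p = 0.0115, adjusted p = 0.133). Without the 2 libraries farthest from the median of Penk, r was 0.72. Penk and Resp18 had an r of 0.76 (permutation p = 1e-05, the smallest the resampling can give, adjusted p = 0.00081) and a rho of 0.76 (adjusted p = 0.00486), with r = 0.67 without the 2 farthest libraries. Tac1 and Resp18 had an r of 0.67 (permutation p = 3e-04, adjusted p = 0.0121) and r = 0.54 without the 2 farthest libraries. Among all 13339 other genes tested in brainstem, Tac1 ranked 4th by its r with Penk, and Resp18 ranked 19th. For Tac1, Resp18 ranked 126th, and for Resp18, Tac1 ranked 140th. Between 0.93% and 10.9% of all genes had an r of at least 0.5 with a given one of the 10 genes there, 2.59% for Penk.

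Npy and Cck had an r of 0.73 in brainstem (permutation p = 0.00073, adjusted p = 0.0166), a rho of 0.60 (permutation p = 0.00537, adjusted p = 0.0870) and r = 0.56 without the 2 farthest libraries, and each ranked 5th for the other among 13339 genes. Sst and Cck passed in both regions, with r = 0.57 in brainstem (permutation p = 0.00425, adjusted p = 0.0492) and 0.65 in hippocampus (permutation p = 0.00127, adjusted p = 0.0206). Without the 2 farthest libraries these were 0.45 and 0.56. In hippocampus 12.8% of all genes had an r of at least 0.5 with Cck and 7.54% with Sst. Cck ranked 175th for Sst there, and Sst 484th for Cck. In brainstem 10.9% of all genes had an r of at least 0.5 with Sst. There Cck ranked 932nd for Sst, and Sst 91st for Cck, so the pair did not stand out among all genes. Npy and Resp18 were the remaining pair, with r = 0.60 in brainstem (permutation p = 0.00373, adjusted p = 0.0492) and 0.57 without the 2 farthest libraries. Resp18 ranked 62nd for Npy, and Npy 417th for Resp18. By Spearman's rho, Penk and Resp18 alone passed the adjusted threshold, and the adjusted permutation p of rho for the other 6 pairs lay between 0.0656 and 0.139. The promoters of Sst, Cck and Tac1 hold the CRE short form, those of Npy and Resp18 do not, and Penk has no window. Only windows of 300 bases were searched, and a part of this motif in the correlations was not tested.

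**Figure D5:**
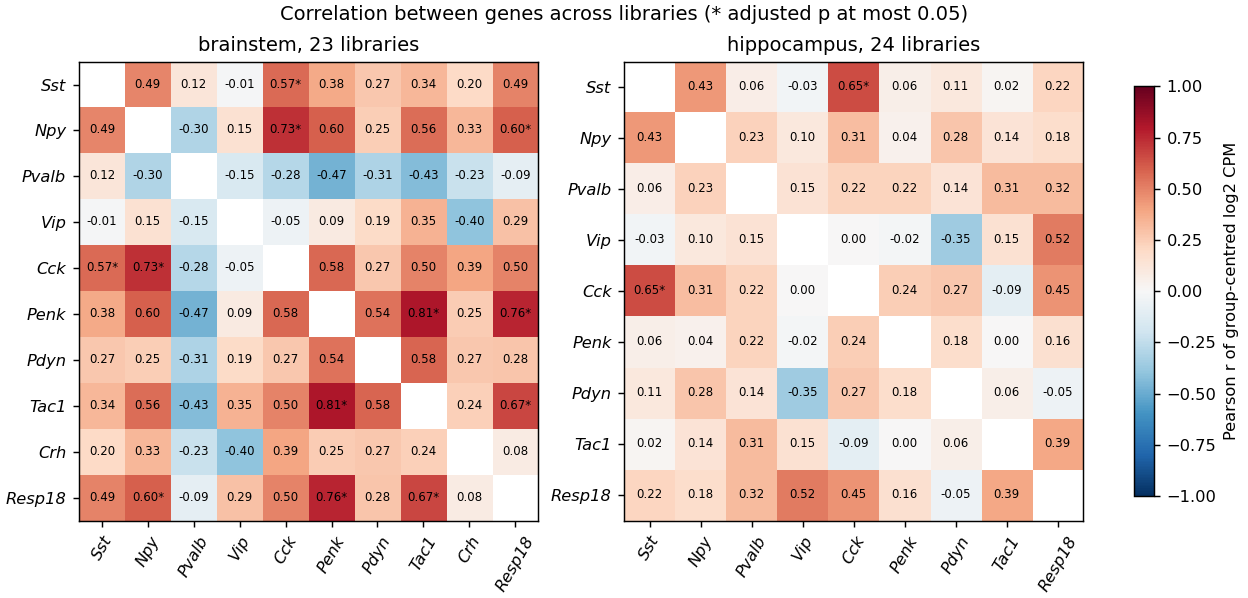
Pearson r between the genes across 23 brainstem libraries (left) and 24 hippocampus libraries (right), on group-centred log2 CPM, with red for positive and blue for negative r and a star at an adjusted permutation p of at most 0.05. Penk, Tac1 and Resp18 form the strongest block in brainstem with r between 0.67 and 0.81, and Sst and Cck at 0.65 are the only starred pair in hippocampus.

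The genes most like each of these across libraries were taken from all genes tested, by the highest r. Their r values are therefore high by selection, and they were not tested. In brainstem they were, for Tac1, Synpr, a synaptic vesicle protein (r = 0.91), and Pam, the enzyme that amidates peptides such as substance P (0.88). For Penk they were Scg2, a granin of dense-core vesicles (0.86), and Mmd (0.83), and for Resp18 they were Qpct (0.83) and Mapk11 (0.82). Crh was most like Rims4 (0.80) and the transcription factor Foxp2 (0.75), Pvalb like Ldhb, a lactate dehydrogenase subunit (0.84), and Gm10250 (0.77), and Npy like Smarcd3 (0.76) and Hoxb6 (0.74). Sst was most like Gm11599 (0.88) and Mrps11 (0.87), Cck like Exosc8 (0.81) and E4f1 (0.76), Pdyn like Sqle (0.73) and Helq (0.69), and Vip like mt-Nd4l (0.76) and Gm10222 (0.76).

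In hippocampus, Penk was most like Lamp5 (0.77) and Zfp960 (0.72), a different pair from brainstem. Npy was most like Itpkb (0.86) and Nr2e1 (0.81), Sst like Pigt (0.84) and Wdr34 (0.83), and Cck like Cnih2, an auxiliary protein of AMPA receptors (0.85), and Romo1 (0.84). Pdyn was most like B4galt5 (0.83) and Slc29a4 (0.77), Vip like Serpini1 (0.83) and 1810014B01Rik (0.81), and Tac1 like Eif3m (0.74) and Gm29257 (0.73). Pvalb was most like Fabp3 (0.78) and its pseudogene Fabp3-ps1 (0.74), and Resp18 like Rpl31-ps12 (0.83) and Ndufa9 (0.82). Reads of pseudogenes and near-identical copies such as these may be split uncertainly. No gene was among the 2 most like the same member in both regions.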

How the data were processed

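Poly(A) RNA was sequenced as single-end reads of 75 bases. The authors aligned the reads with STAR 2.7.9a to an Ensembl mouse reference with the transgene added, and deposited raw read counts per gene and library for each region. The read-to-gene assignment is not given in the sources used here. CPM (edgeR, TMM factors over all 47 libraries) and RPKM (CPM per kilobase of union exons, GENCODE annotation of GRCm38) were computed here from the counts. The annotation is of another build than the reads, so no coordinates of genes are given apart from those of the RefSeq promoter windows.

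Each region was fitted with edgeR 4.0.16 on genes averaging 50 counts or more, TMM factors, the 4 groups and surrogate variables from sva 3.50.0 (4 per region). The regions were compared in 1 model of 8 groups without surrogate variables, on genes averaging 50 counts or more over all 47 libraries. Alternatives were DESeq2 1.42.0, RLE factors, other numbers of surrogate variables, other filters, no fold threshold, a GC correction, a replicate block, a fit of the compared groups alone, and each library left out; 3 surrogate variables were added after seeing the data. Correlations used permutation tests, and the fits were tested on simulated data. The genes and gene lists were chosen with earlier results of these data known, so no count over them is independent evidence. Beside the 10 genes, the text names every listed gene called within a region, the 2 called genes of each list with the largest region difference in each direction, and the 2 genes most like each of the 10; Slc6a5, Gabra6, Pcp2, Adora2a, Drd1, Drd2 and the remaining receptor and processing genes are named as checks. The transgene and its level are not reported here. Libraries of a region came from separate mice, so p-values measure the spread between mice of 1 colony per genotype, and the low counts of Crh, Npy and Vip in brainstem limit their precision.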

Additional observations from a re-analysis of the deposited data

Results flagged for a closer look

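Within the 80 combinations of gene, region and group, 6 held a library that stood apart from the rest by Dixon's test, where chance gives about 1 in 20. In brainstem, TG_SD replicate 7 was low for Penk, at 107 CPM against 126 to 134 CPM in the others, and for Tac1, at 15.9 CPM against 23.6 to 26.4 CPM (leaving out each library in turn kept r between Penk and Tac1 at 0.73 or above). TG_SD replicate 5 was high for Cck in brainstem, at 10.2 CPM against 6.41 to 7.63 CPM. In hippocampus, Cck read 150.9 CPM in WT_SD replicate 5 against 126.7 to 133.6 CPM, Pdyn 19.5 CPM in TG_SD replicate 6 against 11.6 to 13.8 CPM, and Sst 120.8 CPM in WT_HFD replicate 8 against 152 to 162 CPM. The cause of these values was not tested.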

How the results depend on the processing

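Counts of the 10 genes called, and of correlated pairs, were the same or nearly so in 133 of 143 alternatives without a left-out library. With a library left out, the counts of genes called were the same in 320 of 329. Single values were followed only where the main unadjusted p (edgeR) was at most 0.05, for the 10 genes and Pcsk1n. Of these 1283 values, which include the region differences, 0 changed direction, and that choice makes a change unlikely. For TG_HFD/WT_HFD in hippocampus, the count rose from 0 to 2 (Penk and Resp18) with 0, 1 or 2 surrogate variables, with the GC correction, with the replicate block (2) and with the replicate block and GC correction, and to 1 (Penk) with only the 2 groups compared. Over all genes, that contrast called 30 genes with 4 surrogate variables, 515, 614 and 634 with 0, 1 and 2, 101 with the GC correction, 258 with the 2 groups only, and 573 with the block. Leaving out a library gave 0 to 1 there, and 0 to 1 for TG_SD/WT_SD in hippocampus, where dropping the fold threshold gave 1 (Resp18). With 8 surrogate variables, the genotype effect between regions gave 1 (Penk). Without centring on group means, 11 pairs of genes correlated past the threshold, against 7. The causes were not tested. Resp18 had been named for these differences beforehand, so its calls are no support. Within a region, libraries with the same replicate number had r from -0.31 to 0.40 in brainstem and from -0.15 to 0.41 in hippocampus. Between regions, libraries of the same group and number had r from -0.10 to 0.59 (median 0.12, over 0.1 in 10 of 17 pairs, against a median of -0.02 for other numbers). Not every pair passed 0.1, so the numbers were not taken to pair libraries. With group and number as a replicate block over the 34 libraries that share them, 9 of 9 genes were called between the regions.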
